A study of Homo sapiens with 6 samples.

Results

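The array that was used measures transcript clusters, which are stretches of the genome whose probes are summarised as 1 expression value, and many clusters carry no gene name. The clusters described here were those with identifiers beginning TC11 or TC17 (chromosomes 11 and 17), with no gene symbol in the platform annotation, that lay above the array's own median on at least 3 of the 6 arrays. This rule kept 1661 of 3523 unnamed clusters on these chromosomes, 836 on chromosome 11 and 825 on chromosome 17, out of 67528 transcript clusters in the table. The chromosomes were chosen because the comparison below already showed deep falls and large rises there. The differences between the groups are therefore given as a description. Counts of kept clusters called in the fit across all clusters are printed beside the share called over the whole array, and support nothing about these clusters, since the same comparison chose their chromosomes. A cluster without a symbol is unnamed in the annotation used here, which does not say that no gene lies there.

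The study set U87 MG, a long-established line from a human glioblastoma, against U87 MG cells stably transfected with a pCDNA3.1D/V5-His-TOPO plasmid carrying GUCY1B3. GUCY1B3 (current symbol GUCY1B1) encodes the beta subunit of soluble guanylate cyclase, which makes cGMP in response to nitric oxide. There were 3 arrays in each group, all cells were grown in DMEM with 10% FBS, and no treatment was given. The labels name no line with an empty plasmid, so the effect of GUCY1B3 cannot be told apart from that of making a stable line. They also do not say how many stable clones were used or whether the replicates were separate cultures, so the spread between arrays may be technical.

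Unnamed clusters of an exon-level array can hold long noncoding RNAs, antisense transcripts, pseudogene transcripts, small RNA precursors or unplaced parts of coding genes. Long noncoding RNAs are often made from the neighbourhood of coding genes, and a cluster may share probes with copies elsewhere in the genome. Chromosome 11 carries the collagenase and stromelysin genes side by side, and chromosome 17 carries the hair keratin-associated protein genes, the HOXB genes and the tumour suppressor NF1.

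The overexpressed gene was higher on every overexpression array. The cluster of GUCY1B1 read 8.10, 8.18 and 8.40 in overexpression and 7.45, 7.70 and 7.49 in control, a difference of 0.68 on the log2 scale (limma, adjusted p = 0.011). The medians of the arrays lay between 4.97 and 5.03. Of 7 clusters for 6 markers of this line, 2 were called higher and 1 lower in overexpression by limma. Over all clusters tested the shares called were 3.56% higher and 2.29% lower. NES, the gene of the intermediate filament nestin, differed by 0.53 (adjusted p = 0.0045), a CD44 cluster described below by 0.51 (adjusted p = 0.00498), and TNC, the gene of the matrix protein tenascin C, by -0.70 (adjusted p = 0.0182). VIM, CAV1, S100A6 and the other CD44 cluster were not called, and VIM was the brightest of the markers, at 12.15 in overexpression and 12.09 in control. The call of TNC was lost when any overexpression array or control array 1 was left out, with the replicate number as a block and with an ordinary equal-variance model. The group means of GFAP, OLIG2 and CDKN2A lay between 5.18 and 6.65. Those of the 9 matched markers of leukocytes, endothelium, epithelium, oligodendrocytes and neurons lay between 3.39 and 5.79, and 5 of the 9 passed the filter on dim clusters. The array's 23 control features for background, which are grouped by GC content, read up to 11.43, and 10 of them lay above the median on each array. Exceeding the median thus does not by itself show that a transcript was present, and only 11 kept clusters exceeded the brightest background feature on every array.

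Most of the kept clusters differed little between the groups. The median difference, overexpression minus control, was 0.03 on the log2 scale, and the interquartile range ran from -0.05 to 0.10. In 954 clusters (57.4%) the size of the difference was under 0.1, in 504 (30.3%) it was 0.1 to 0.25, and in 165 (9.93%) it was 0.25 to 0.5. A further 28 clusters (1.69%) differed by 0.5 to 1, of which 19 were lower and 9 higher in overexpression. Only 10 (0.602%) differed by at least 1, which is 2-fold, with 9 lower and 1 higher. Over all 33355 clusters that passed the same filter, 57.1% differed by under 0.1 and 0.333% by at least 1.

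**Figure D1:**
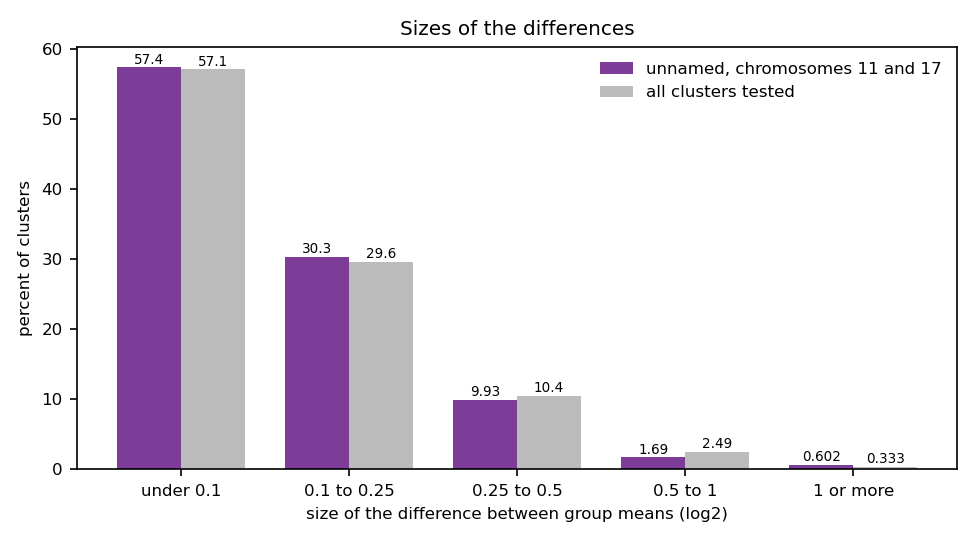
Bars give the percent of clusters (vertical axis) by the size of the difference between the group means on the log2 scale (horizontal axis), for the 1661 unnamed clusters on chromosomes 11 and 17 and for all 33355 clusters that passed the filter. Differences under 0.1 made up 57.4% and 57.1%, and differences of 1 or more made up 0.602% and 0.333%.

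In the fit across all clusters, limma at an adjusted p under 0.05 called 29 kept clusters higher (1.75%) and 22 lower (1.32%) than in control, against 3.56% and 2.29% of all clusters tested. With each array centred on its median, 15 were higher and 20 lower. The arrays of the 2 groups did not overlap in 183 clusters that were higher (11.02%) and 104 that were lower (6.26%), against 15.4% and 9.76% of all clusters tested. At least 2-fold lower were 9 (0.542%) and at least 2-fold higher 1, against 0.243% and 0.0899% of all clusters. The calls moved with each array. Leaving out overexpression array 1, 2 or 3 in turn left 2, 1 and 2 clusters called higher, with 6 called lower each time. Leaving out control array 1 gave 7 calls higher with 14 lower, control array 2 gave 18 with 12, and control array 3 gave 87 with 63. The share called over all clusters is given for the fit with all arrays only. The counts with an array left out or centred thus say nothing particular to the kept clusters. In bulk RNA such as this, fewer cells making a transcript and less of it per cell cannot be told apart.

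Not every kept cluster was an independent measurement. Identical values on all 6 arrays were shared by 71 kept clusters in 17 sets, so that the 1661 clusters held 1607 distinct profiles. Over the whole array the 33355 clusters that passed the filter held 32251, so shared profiles were not particular to the clusters described here. All but 2 of the 17 sets lay on chromosome 17 alone, and the 3 largest held 10, 9 and 9 clusters. Of the 28 clusters that were lower by 0.5 or more, 9 shared 1 profile. Arrays of the 2 groups correlated across the kept clusters, which are not independent replicates, at Pearson's r between 0.974 and 0.984. Control array 3 correlated at 0.981 and 0.982 with the other controls and at 0.982 to 0.984 with the overexpression arrays.

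The identifiers themselves carried a position. On each chromosome they fell into 4 stretches. In the first stretch, up to TC11001221.hg.1 and TC17000960.hg.1, identifiers of named clusters followed the order of their genes in the RefSeq table (Spearman's rho 1.0 over 691 and 561 clusters, a description), and 452 of 454 and 345 of 345 genes with a known strand were on the plus strand. In the second, up to TC11002475.hg.1 and TC17001988.hg.1, the order held again (1.0 over 670 and 615 clusters) and all 437 and 381 genes with a known strand were on the minus strand. The third stretch, up to TC11003430.hg.1 and TC17002842.hg.1, held 954 and 853 clusters and not a single gene symbol, so that its clusters could not be placed beside a named gene. The last was short and unordered and held 6 kept clusters. The stretch without symbols held 927 of the 1661 kept clusters, the first 345 and the second 373. Between the first and second stretches of chromosome 11 lay 1 further kept cluster, and 9 carried identifiers of alternative or unplaced sequences.

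The stretch without symbols held 6 of the 9 clusters that were at least 2-fold lower and the only 1 that was at least 2-fold higher. Of its 927 kept clusters limma called 19 higher (2.05%) and 12 lower (1.29%), against 3.56% and 2.29% of all clusters tested. Its median difference was 0.03, against 0.02 in the first and 0.02 in the second stretch.

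**Figure D2:**
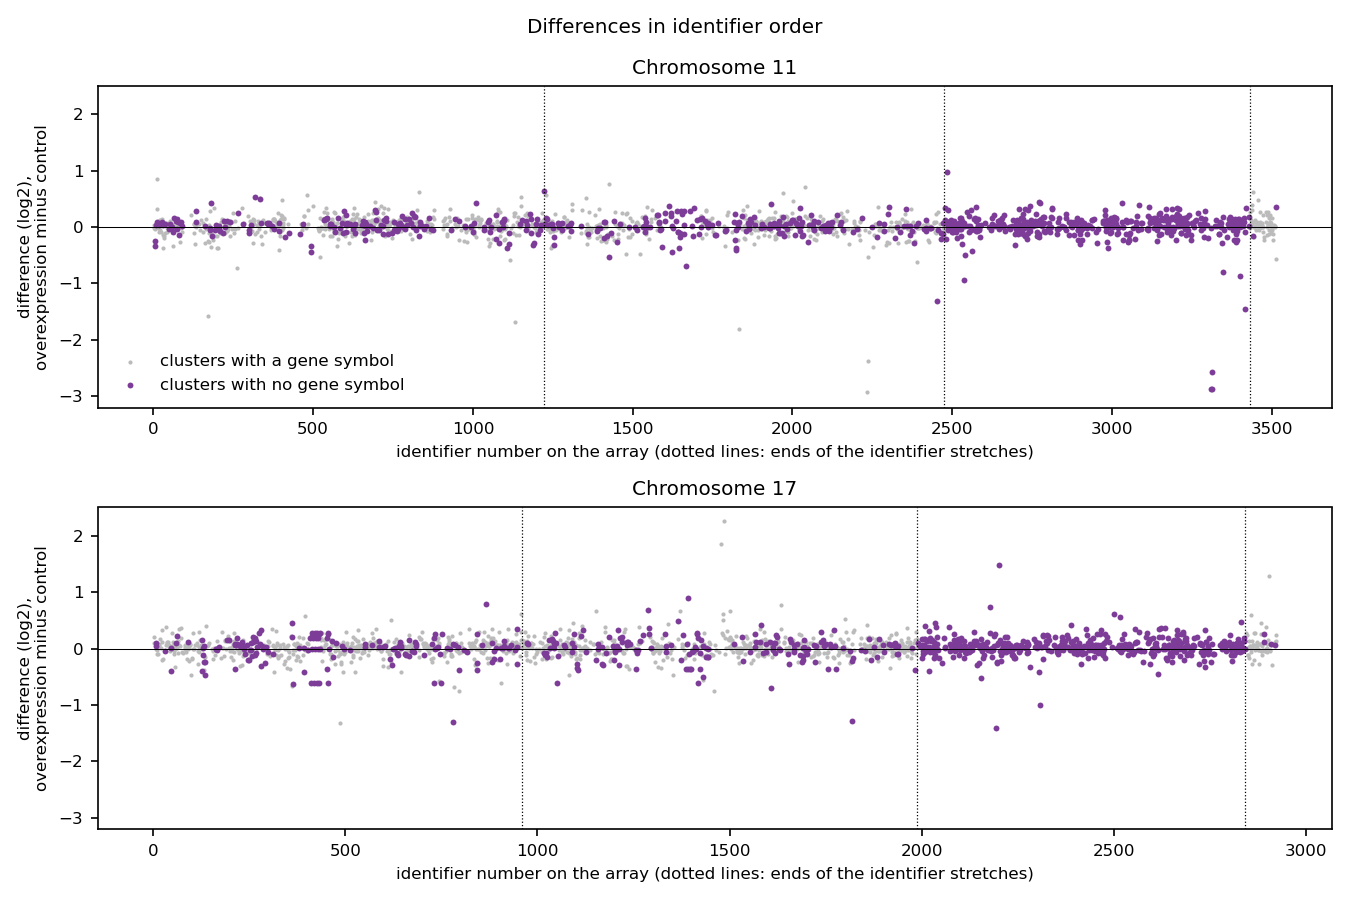
Each point is a cluster that passed the filter, at its identifier number on chromosome 11 or 17 (horizontal axis) and its difference between the group means on the log2 scale (vertical axis), purple without and grey with a gene symbol. Dotted lines end the stretches of identifiers. The purple points near -2.88 on chromosome 11 are the consecutive unnamed clusters TC11003311.hg.1 and TC11003312.hg.1, in the stretch that holds no gene symbol. The grey point at -2.92 is MMP1, in the second stretch.

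The clusters described next for their size were taken from those whose arrays did not overlap between the groups, so that this separation was part of the choice. The deepest differences belonged to consecutive identifiers on chromosome 11, TC11003311.hg.1 to TC11003313.hg.1. They were the only run of 3 or more neighbouring clusters that all differed by at least 0.5 in the same direction. They ranked 1 to 3 among the 15482 unnamed clusters of the whole array that passed the filter, ordered from the lowest difference. TC11003312.hg.1 had control values of 11.82, 11.52 and 10.78 and overexpression values of 8.45, 8.60 and 8.43. Its mean was 7.35-fold lower in overexpression, at 8.49 ± 0.09 against 11.37 ± 0.53 (SD, n = 3 each). TC11003311.hg.1 read 11.42, 11.08 and 10.40 in control, in the order of the replicates, and 8.15, 8.04 and 8.11 in overexpression, 7.29-fold lower.

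In both of these clusters the 3 control arrays lay far above the 3 overexpression arrays, and control array 3 was the lowest control. TC11003313.hg.1 varied more among the controls. It read 10.77, 9.60 and 8.39 in control and 7.13, 7.17 and 6.74 in overexpression, 5.94-fold lower. Its difference was -2.57 with all arrays, -1.98 without control array 1 and -3.17 without control array 3. The clusters on either side of the run, TC11003310.hg.1 and TC11003314.hg.1, stayed below the filter on all arrays and differed by 0.07 and -0.30.

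The spread of these clusters among the controls could be set beside that of the named collagenase MMP1 and stromelysin MMP3, secreted matrix metalloproteases whose genes are neighbours on chromosome 11. This measure does not use the overexpression arrays. The pairs were chosen after their values were seen. Control array 2 differed from control array 1 by -0.29 and control array 3 by -1.03 in MMP1. The same steps were -0.33 and -1.02 in TC11003311.hg.1 and -0.30 and -1.04 in TC11003312.hg.1. In MMP3 the steps were -1.09 and -2.30, and in TC11003313.hg.1 they were -1.17 and -2.38. The run thus differed from MMP1 or MMP3, whichever was nearer, by at most 0.08 in any step. In MMP12, a metalloprotease gene of the same gene cluster, the steps were -1.58 and -2.24. How many other clusters of the array had such steps was not counted. The 3 clusters of the run could not be placed on the chromosome from their identifiers. Whether they share sequence or transcripts with the named genes was not tested.

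**Figure D3:**
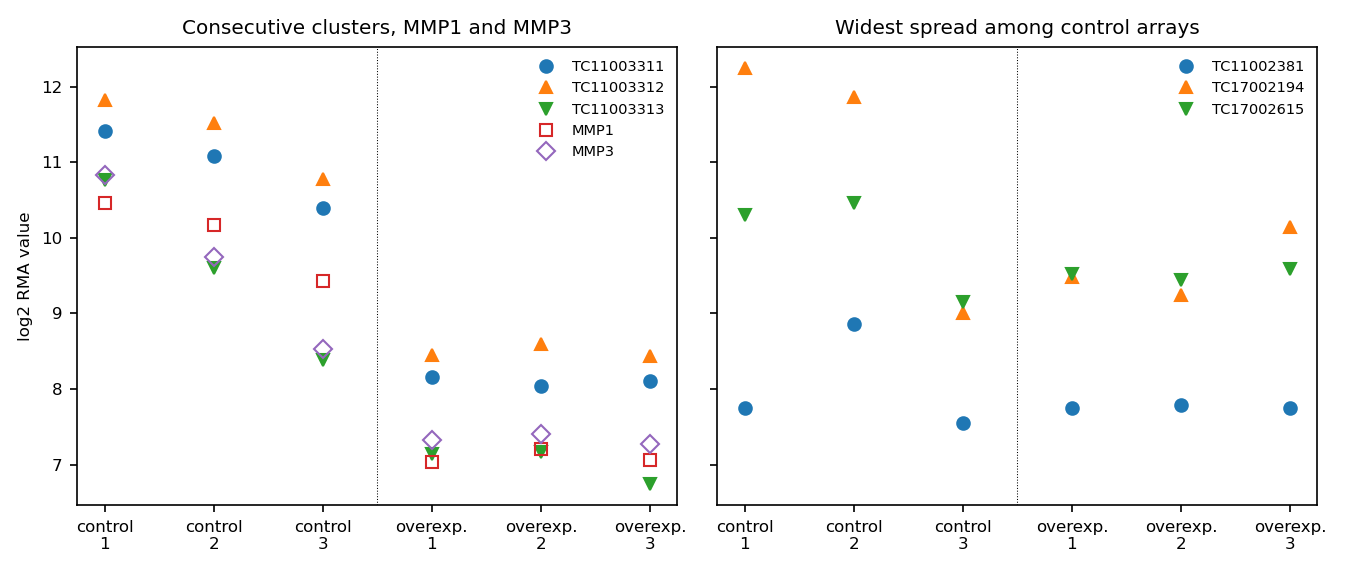
Log2 values (vertical axis) on each of the 6 arrays (horizontal axis), at left for the consecutive clusters TC11003311.hg.1 to TC11003313.hg.1 with MMP1 and MMP3, at right for the other clusters with the widest spread among controls. At left every control value lies above every overexpression value of the same cluster, and control array 3 is the lowest control. At right TC17002194.hg.1 reads 8.999 on control array 3, below all 3 overexpression arrays.

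Between groups, MMP1 read 10.02 ± 0.53 in control and 7.10 ± 0.10 in overexpression and MMP3 read 9.70 ± 1.15 and 7.33 ± 0.07 (SD, n = 3 each). Of the 9 metalloproteases of that gene cluster 3 passed the filter, MMP1, MMP3 and the macrophage elastase MMP12, of which 2 were called lower and 0 higher (limma, adjusted p under 0.05), against 2.29% and 3.56% of all clusters. The genes were listed with earlier results of these data known, so these counts are a description and support no enrichment. The calls lower came to 1 when any overexpression array or control array 2 was left out, with the replicate number as a block and without the filter on dim clusters, and to 0 with an ordinary equal-variance model, where 2 had an unadjusted p under 0.05. The share of all clusters at that p is not given for this model. The median of the 3 was -2.37, against 0.03 over all clusters. MMP12, which was not called, read 6.81, 5.23 and 4.57 in control and 4.94, 5.11 and 4.98 in overexpression.

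Further unnamed clusters of chromosome 11 were lower in overexpression without lying in a run. TC11003415.hg.1, in the stretch without gene symbols, read 8.5, 9.08 and 8.30 in control and 7.15, 7.14 and 7.21 in overexpression, 2.75-fold lower. TC11002536.hg.1, from the same stretch, read 6.79, 7.44 and 6.99 in control and 6.03, 6.34 and 6.01 in overexpression, a difference of -0.94. The overexpression arrays of TC11003415.hg.1 lay within 0.1 of each other, while control array 2 was the highest control in both clusters.

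TC11002453.hg.1 could be placed, on the minus strand between ADAMTS8, a secreted metalloprotease with thrombospondin motifs, and the noncoding LINC02551. It read 7.73, 8.51 and 7.65 in control and 6.74, 6.52 and 6.73 in overexpression, 2.47-fold lower. Its neighbours hardly differed, by -0.02 for ADAMTS8 and 0.04 for LINC02551, which stayed below the filter. The difference was thus not seen in ADAMTS8, which read 5.61 in overexpression and 5.62 in control. At 4.12 and 4.08, LINC02551 was so dim that a fall might not show.

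Among the clusters of chromosome 11 that were higher, TC11002483.hg.1 led, with 9.51, 9.49 and 9.77 in overexpression and 8.81, 8.97 and 8.08 in control. Its difference was 0.97, and control array 3 was the lowest array. TC11001222.hg.1, between the first and second stretches of identifiers, read 7.02, 6.96 and 6.90 in overexpression and 6.01, 6.39 and 6.56 in control, a difference of 0.64. In both clusters the controls spread over more than the overexpression arrays.

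TC11000334.hg.1 followed directly on the second of the clusters named CD44, the gene of a hyaluronan receptor. It read 6.86, 6.95 and 6.76 in overexpression and 6.42, 6.57 and 6.12 in control, a difference of 0.49. The CD44 cluster beside it, TC11000333.hg.1, differed by 0.51, with 5.82 ± 0.02 against 5.31 ± 0.07 (SD, n = 3 each), whereas the brighter CD44 cluster TC11000332.hg.1 differed by 0.07, with 10.54 ± 0.10 against 10.47 ± 0.12. The unnamed cluster thus differed by about as much as the dimmer of the CD44 clusters. On the other side, FJX1, a homologue of the fly growth regulator four-jointed, differed by -0.15.

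TC11000318.hg.1, between KIAA1549L and the RNA-binding protein gene CAPRIN1, read 7.15, 7.05 and 7.32 in overexpression and 6.42, 6.57 and 6.95 in control, while its neighbours differed by -0.12 and -0.09. TC11000179.hg.1 lay between the noncoding SBF2-AS1 (difference 0.29) and ADM, the gene of the vasodilator peptide adrenomedullin (difference -0.35). It read 6.13, 6.27 and 6.07 in overexpression and 5.62, 5.72 and 5.84 in control, a difference of 0.43. TC11002772.hg.1, which could not be placed, differed by 0.44, with 6.16 ± 0.13 against 5.73 ± 0.19 (SD, n = 3 each). In TC11000318.hg.1 control array 3 lay closer to the overexpression arrays than to the other controls.

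**Figure D4:**
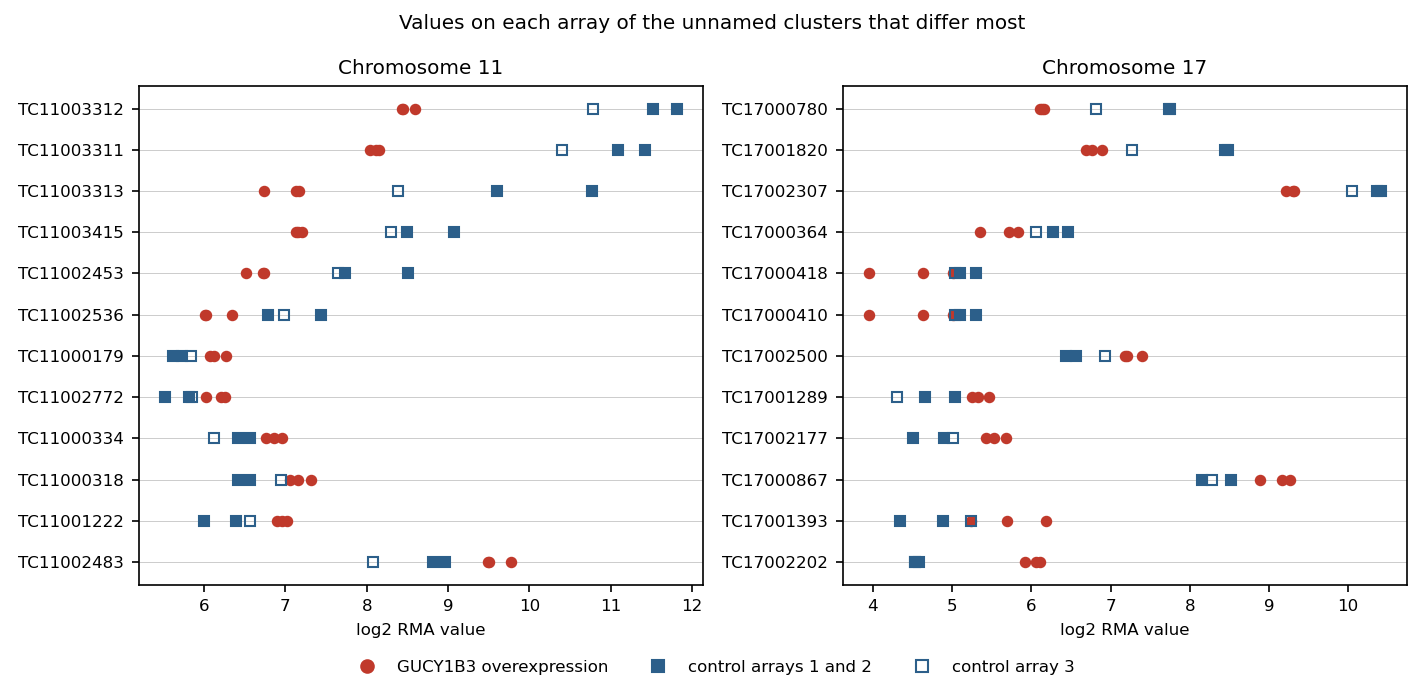
Log2 RMA values on each array (horizontal axis) of the 6 unnamed clusters with the greatest fall and the 6 with the greatest rise on chromosomes 11 and 17 among those whose groups did not overlap. Red circles are overexpression arrays, blue squares are control arrays, and the open square is control array 3. The group means lie furthest apart in TC11003312.hg.1 among clusters that were lower and in TC17002202.hg.1 among those that were higher.

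On chromosome 17 the greatest difference upward was that of TC17002202.hg.1, which lay in the stretch without gene symbols. It read 6.06, 6.11 and 5.92 in overexpression and 4.59, 4.54 and 4.53 in control. Its mean was 2.79-fold higher, at 6.03 ± 0.10 against 4.55 ± 0.03 (SD, n = 3 each), and the difference stood 5th from the top among the 15482 unnamed clusters that passed the filter. All 3 controls lay below the array median, so the cluster passed the filter through the overexpression arrays alone. This was so for 5 kept clusters, and 3 passed through the control arrays alone, 8 clusters that by the rule had to differ.

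TC17000867.hg.1 was among the brighter of these clusters. It read 8.89, 9.16 and 9.27 in overexpression and 8.52, 8.15 and 8.29 in control, a difference of 0.79. In identifier order it followed RNF157-AS1, a noncoding antisense gene, and came before RNU6-24, a copy of the U6 spliceosomal RNA gene. These neighbours differed by 0.09 and -0.26.

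TC17001393.hg.1 lay between the chemokine gene CCL3 and the 5S ribosomal RNA copy RNA5SP439, each 8 identifiers away. It read 5.70, 6.19 and 5.24 in overexpression and 4.34, 4.88 and 5.23 in control. Its lowest overexpression array lay barely above its highest control. TC17001289.hg.1 lay between MIR4522, 16 identifiers before it, and the keratin pseudogene KRT18P55, 4 after it. It read 5.47, 5.33 and 5.26 in overexpression and 4.65, 5.04 and 4.31 in control, a difference of 0.69. TC17002177.hg.1 differed by 0.74 and TC17002500.hg.1 by 0.62, with overexpression means of 5.55 ± 0.13 and 7.26 ± 0.12 and control means of 4.80 ± 0.26 and 6.65 ± 0.26 (SD, n = 3 each). Both lay in the stretch without gene symbols and could not be placed. TC17001393.hg.1, TC17001289.hg.1 and TC17002177.hg.1 exceeded the array median on 4 arrays each, the 3 overexpression arrays and 1 control array. Their control means, 4.82, 4.67 and 4.80, lay below the lowest array median of 4.97. TC17002500.hg.1 exceeded the median on all 6 arrays.

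Downward, TC17000780.hg.1 and TC17001820.hg.1 lay on opposite strands and differed by like amounts, -1.30 and -1.28, at different levels. TC17000780.hg.1, on the plus strand between CEP95, a centrosomal protein gene, and RGS9, a regulator of G protein signalling, read 7.73, 7.76 and 6.82 in control and 6.11, 6.14 and 6.15 in overexpression, 2.46-fold lower. TC17001820.hg.1, on the minus strand between C17orf58 and the autophagy gene WIPI1, read 8.45, 8.49 and 7.27 in control and 6.70, 6.76 and 6.89 in overexpression, 2.44-fold lower. In both, control arrays 1 and 2 were nearly equal and control array 3 differed from their mean by -0.93 and -1.20. The named neighbours did not follow, with differences of -0.13 for CEP95, 0.04 for RGS9, 0.09 for C17orf58 and 0.29 for WIPI1.

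TC17002307.hg.1 was bright and tight. It read 10.36, 10.42 and 10.05 in control and 9.30, 9.32 and 9.21 in overexpression, at least 2-fold lower by its means, and could not be placed beside a gene. Its groups lay further apart than the whole spread of either group.

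TC17000364.hg.1 lay on the plus strand between NF1, the gene of a negative regulator of RAS, and MIR193A, the gene of a microRNA. It read 6.46, 6.27 and 6.06 in control and 5.35, 5.72 and 5.83 in overexpression, a difference of -0.63. NF1, 2 identifiers before it, differed by -0.66, with 7.48 ± 0.08 against 8.14 ± 0.16 (SD, n = 3 each), and MIR193A, the next identifier, by -0.10, with 7.58 ± 0.04 against 7.67 ± 0.04. The unnamed cluster thus differed by about as much as NF1 and by more than the microRNA cluster next to it. The mature sequences of that microRNA are shown because they mark the nearest named place to this cluster. They are from RefSeq (GRCh38.p14, plus strand, chr17:31560016-31560037 and chr17:31560050-31560071) and have the seed (bases 2 to 8) in capitals.
hsa-miR-193a-5p: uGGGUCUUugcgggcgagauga
hsa-miR-193a-3p: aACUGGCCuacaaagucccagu

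The remaining place among the greatest falls of chromosome 17 went to a profile shared by 9 clusters, from TC17000410.hg.1 to TC17001417.hg.1. It read 5.31, 5.10 and 5.03 in control and 3.94, 5.01 and 4.63 in overexpression, a difference of -0.62. Overexpression array 2 lay just below the lowest control, and overexpression array 1 decided much of the size, since without it the difference was -0.33. Those of the 9 with the lowest identifiers, TC17000410.hg.1 and TC17000418.hg.1, lay on the plus strand between the chemokine gene CCL4 and ZNHIT3, a zinc finger protein gene, and CCL4 stayed below the filter. CCL4 was 2 and 10 identifiers before them, and ZNHIT3 26 and 18 after them. Of the larger shared profiles, that of 10 clusters differed by -0.36 and the other of 9 by 0.19, and in both of these the groups overlapped.

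**Figure D5:**
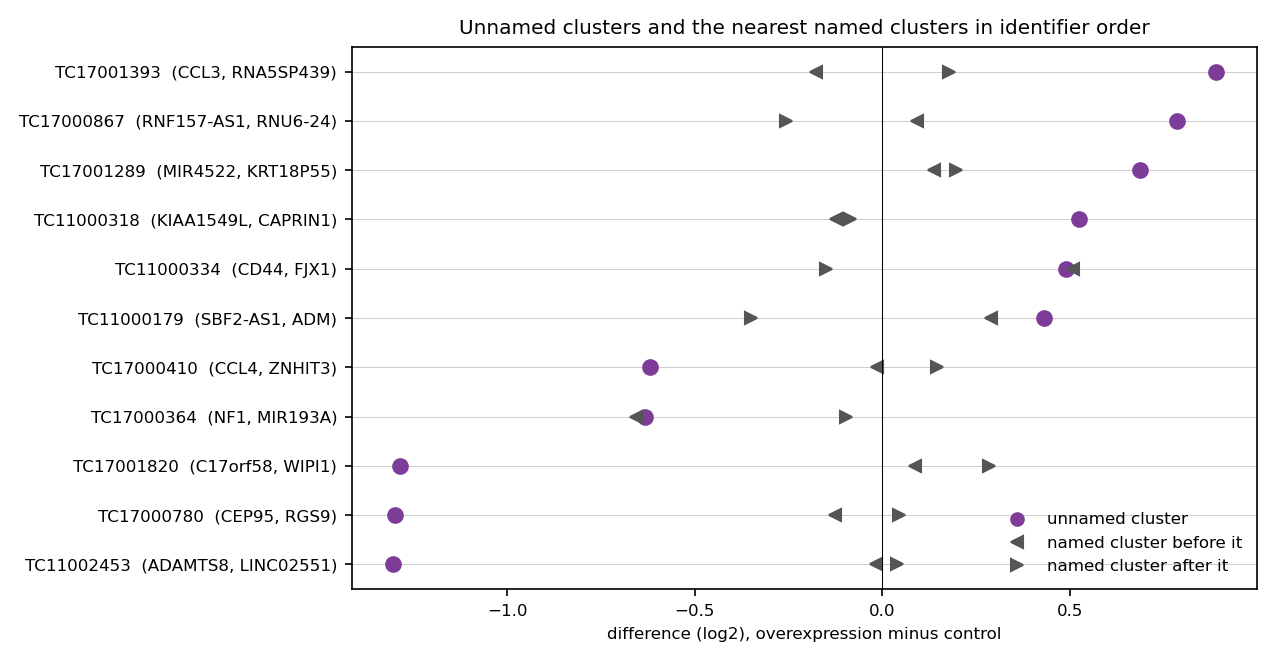
Differences between the group means on the log2 scale (horizontal axis) for the 11 placeable clusters among those that differed most (purple circles, with the shared profile drawn once). Triangles are the nearest clusters with 1 gene symbol before and after each in identifier order, with the gene names at left. These lay 1 to 26 identifiers away. Beside TC11000334.hg.1 a CD44 cluster differed by 0.51 and beside TC17000364.hg.1 NF1 differed by -0.66.

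The first and second stretches held 718 kept unnamed clusters. In 420 of them the nearest named cluster had an adjacent identifier and passed the filter. Differences had the same sign in 214 of these pairs (51.0%), with Pearson's r of 0.04 and Spearman's rho of 0.04 across pairs. Neighbours were sought in the same stretch only, so genes of the other strand were largely left out. Of all kept clusters 57.4% differed by under 0.1, so many signs may rest on small differences. The pairs thus cannot decide whether unnamed clusters follow the genes beside them. These are descriptions over pairs that share all 6 arrays. In stretches of 100 consecutive clusters that held at least 20 kept unnamed ones, 13 in all, the median difference of the unnamed clusters lay between -0.06 and 0.09. The rest of the 46 stretches held fewer and are not in this range. Among them, TC17001270.hg.1 to TC17001372.hg.1 had a median of 0.25 over 10 kept unnamed clusters, 9 of them higher. TC11000410.hg.1 to TC11000512.hg.1 had -0.16 over 6, of which 5 were lower. Such medians cannot be weighed against single clusters that were chosen for their size.

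Named genes of the same chromosomes, listed with the earlier results known, give the surroundings of these clusters. Of 21 noncoding RNA genes listed for chromosomes 11 and 17, 10 had a cluster of their own and 7 passed the filter. By limma 0 were called higher and 0 lower, and the median difference was -0.0002 against 0.03 over all clusters. An unadjusted p under 0.05 was reached by 0 of the 7, and by 1 when control array 1 was left out. Over all clusters tested 6769 of 33355 reached it in the fit with all arrays, so 0 of 7 says little. MALAT1, a long nuclear RNA, was the brightest of these noncoding RNA genes at 10.98 ± 0.06 in overexpression and 11.12 ± 0.34 in control (SD, n = 3 each). Of 16 clusters of keratin-associated proteins 11 passed the filter and 4 were called higher, against 3.56% of all clusters, and 0 lower, with a median difference of 0.28. Leaving out any overexpression array or control array 2 gave 2 calls, and an ordinary equal-variance model gave 1. KRTAP1-5, a hair shaft protein gene on the minus strand, had the greatest difference in the list, 1.86, with 9.58 ± 0.17 in overexpression and 7.72 ± 0.15 in control (SD, n = 3 each). Of 8 HOXB clusters, which encode body-axis transcription factors, 8 passed and 0 were called by limma in either direction, with a median difference of 0.09. An unadjusted p under 0.05 was reached by 1 of the 8, against the same 6769 of 33355 clusters tested.

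The control arrays also differed among themselves. The median SD among controls was 0.11 in the kept unnamed clusters and 0.09 in named clusters of these chromosomes, and among overexpression arrays 0.08 and 0.06. In unnamed clusters of other chromosomes that passed the filter it was 0.11 among controls and 0.08 among overexpression arrays, much as here. Control array 3 lay at least 0.5 away from the mean of the other controls in 75 kept clusters (4.52%), 49 of them lower and 26 higher, against 3.001% of all clusters that passed the filter. The share was 3.84% in unnamed clusters of other chromosomes. Shared profiles count more than once among the 75, such as that of 5 clusters that read 8.30, 8.15 and 7.66 in control. The widest spread was that of TC17002194.hg.1, which read 12.25, 11.86 and 8.999 in control and 9.48, 9.25 and 10.15 in overexpression. Its groups overlapped, and its difference was -1.41 with all arrays, -0.81 without control array 1 and -2.43 without control array 3.

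TC17002615.hg.1 read 10.30, 10.46 and 9.15 in control and 9.52, 9.44 and 9.58 in overexpression. Here too control array 3 lay below every overexpression array while the other controls lay above them. TC11002381.hg.1, the identifier after MIR100HG, the host gene of a microRNA cluster, read 7.75, 8.86 and 7.55 in control and 7.75, 7.79 and 7.75 in overexpression. In this cluster control array 2 stood alone, and MIR100HG itself read 5.26, 5.48 and 5.26 in control.

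The clusters nearest to the threshold of the rule differed little between the groups. The 3 kept clusters nearest to it, TC11003114.hg.1, TC11002881.hg.1 and TC11000794.hg.1, differed by -0.01, 0.08 and 0.04. The 3 nearest below it, TC11000255.hg.1, TC11002545.hg.1 and TC11002621.hg.1, differed by -0.04, 0.01 and 0.06. Of the kept clusters 1488 exceeded the median on all 6 arrays and 173 on 3 to 5. The rule kept 42.5% of the unnamed clusters of chromosome 11 and 53.1% of those of chromosome 17, against 35.7% of the unnamed clusters of other chromosomes and 74.8% of the named clusters of these 2 chromosomes.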

How the data were processed

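The deposited values are log2 signals of 6 arrays that the authors made with RMA in Affymetrix Expression Console per the submitters' processing notes and the labels. Since RMA equalises the arrays' distributions by quantiles, a shift common to all transcripts would not show. Version and genome build are not given in the sources used here, and no coordinates of clusters are printed. Symbols came from the platform annotation (23781 clusters with 1 symbol, 1543 with several, 42204 with none). Of 2670 clusters with 1 symbol on chromosomes 11 and 17, 2667 were found in the RefSeq table of GRCh38.p14, used for gene order only.

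All 33355 clusters above the array median on at least 3 of 6 arrays were fitted with limma 3.58.1 under R 4.3.3 (lmFit and eBayes on the 2 groups alone), and p-values were adjusted by Benjamini-Hochberg over all of them, at a threshold of 0.05. Python 3.11.15, pandas 2.3.3, numpy 2.4.6 and matplotlib 3.10.9 served for the rest. On simulated data for overexpression against control with 33355 clusters, 78 of 100 changed by 0.5 and 99 of 100 changed by 1 were recovered, and 6 of 183 calls were unchanged clusters. The simulated noise was independent and normal, with each cluster's fitted variance on every array. Shared profiles and an array that stands apart, as control array 3 did in some clusters, were not simulated. Recovery in the real data may thus differ. Array number limits the precision.

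The clusters, lists and tests were chosen with earlier results of these data known. The rule for names took, among clusters whose groups did not overlap, the 6 greatest falls and rises on each chromosome with their nearest named clusters, runs of 3 or more consecutive clusters differing by at least 0.5, the 4 widest control SDs and the 3 clusters on each side of the filter. Alternatives were array centring, cyclic loess, other filters, prior and weight settings, a replicate block and leaving out each array.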

Additional observations from a re-analysis of the deposited data

How the results depend on the processing

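The counts of called clusters depended on the settings. The share called over all clusters is not given for these settings, so the counts say nothing particular to the kept clusters. Against 29 higher and 22 lower as reported, 15 were higher with arrays centred on their medians and 18 with cyclic loess, 13 were lower without the filter on dim clusters, 2 and 2 were called with an ordinary equal-variance model, 61 and 44 with array weights, and 11 and 12 when adjusted over unnamed clusters only. With the replicate number as a block, 6 were higher and 10 lower. The labels do not say whether the shared numbers pair the arrays. Deviations of same-numbered arrays from their group means correlated at 0.19, -0.03 and -0.14, and not every array correlated best with its own number. Deviations from a mean of 3 arrays depend on each other, so these values cannot decide whether the arrays were paired. With each array left out in turn, 1 to 87 were higher, 6 to 63 lower, 2 to 2 at least 2-fold higher and 7 to 10 at least 2-fold lower. The 1 cluster at least 2-fold higher dropped out, leaving 0, when all 6 arrays had to exceed the median. Counting identical profiles once, an alternative chosen after seeing the data, gave 31 and 22. The differences of the 24 clusters named for their size moved by less than their SD pooled over both groups. Settings that alter only the test leave a difference as it is, and groups that do not overlap fix its sign when an array is left out, so this says little about stability. Signal near background limits the clusters close to the array median.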
